A study of Mus musculus with 10 samples.

Results

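The 42 genes described here encode the machinery that copies DNA in S phase, and each was measured by at least 1 probe set naming that gene alone, out of 18193 genes measured in this way. They were chosen by name, but with earlier results of these data known. Most encode subunits of the replicative helicase and its loaders, the clamp and clamp loader, the single-strand binding protein and the replicative polymerases. The others encode the enzymes that finish Okazaki fragments, and ribonucleotide reductase. For each gene the probe set with the highest mean log2(signal + 16) over all 10 arrays was used. The RNA came from sorted LSK/CD48- bone marrow cells. LSK cells lack markers of mature blood lineages and carry Sca-1 and Kit, and those without CD48 are enriched for haematopoietic stem cells. In 5 mice of genotype Mx1-cre;Mll F/F a Cre that interferon switches on was used to delete floxed Mll (official symbol Kmt2a), which encodes an enzyme that methylates histone H3, and 5 controls were Mll F/F mice without Cre. All 10 were 8-week-old females on a B6.SJL-Ptprca Pep3b/BoyJ background, and all, controls included, were given pI:pC, a double-stranded RNA that raises interferon, at 10 µg per gram plus 50 µg in 3 injections spaced 48 hours apart. Bone marrow was harvested on day 6, and total RNA (1500 to 10000 cells) was amplified before it was hybridised to Affymetrix Mouse Genome 430 2.0 arrays, 5 arrays for each group. Mx1-cre acts in interferon-responsive cells of many tissues and not in stem cells alone, and because controls lacked Cre the design cannot tell its presence apart from loss of Mll.

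Replication starts at origins marked by the origin recognition complex (ORC). In G1, Cdc6 and Cdt1 help ORC to load the ring-shaped Mcm2-7 helicase onto DNA, a step called licensing, and in S phase Cdc45 and the GINS complex join it to form the active helicase. Primase and polymerase alpha lay down primers, replication factor C (RFC) loads the sliding clamp PCNA, and polymerases delta and epsilon extend the new strands. Adult stem cells are mostly quiescent, and quiescent cells commonly hold low levels of licensing factors. By their brightest probe sets, most licensing genes were not dim in these pI:pC-treated controls. Mcm5, Cdt1 and Mcm2 averaged 11620, 4980 and 1114 there, and Orc1 54.7. Over all 10 arrays these probe sets were brighter than 99.7%, 99.1%, 96.6% and 68.6% of all probe sets. Taking the brightest set of a gene raises its rank. The other tested sets were dimmer in controls, at 606 and 41.1 for Mcm5, 404 for Cdt1, 282 for Mcm2 and 36.6 for Orc1. Whether the control cells were cycling was not tested.

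Replication genes were mostly higher in Mll-deficient cells. Of the 42 genes, all of which passed the filter on low signal, 11 rose, 0 fell and 31 did not pass an adjusted p of 0.05 in limma's moderated test with Benjamini-Hochberg adjustment over 12582 genes. The 11 were Mcm2, Orc2, Orc6, Cdc6, Mcm10, Rfc4, Rpa2, Pold1, Pold2, Pole2 and Exo1. Over all tested genes 5.51% passed, 3.76% as rises and 1.75% as falls. These were 473 rises and 220 falls, and after centring each array on its median they were 471 and 107, with 12 and 0 among the replication genes. The share of rises depended on the filter. It was 2.04% of all genes with no filter and 5.42% with a 60th percentile filter, where 9 and 11 of the 42 rose. Brightness was not matched between the 42 genes and all tested genes. At an unadjusted p under 0.05, 21 of the 42 were higher and 0 lower, against 10.5% and 10.2% of all tested genes. The log2 difference, Mll-deficient minus control on the log2(signal + 16) scale, lay above 0 for 40 replication genes, and this held for 46.6% of all tested genes. Its median was 0.53 over the 42 genes, from -0.22 for Pola1 to 1.31 for Rfc4, and -0.04 over all tested genes. The offset of 16 understates fold changes of dim genes. For 11 genes the 5 Mll-deficient arrays all lay above the 5 control arrays, which happened for 4.42% of all tested genes, and for 0 they all lay below, against 2.54%. In RNA of sorted cells, a larger share of cycling cells and more RNA per cell cannot be told apart.

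How many replication genes passed changed with the arrays included. Leaving out control replicate 1 or control replicate 3 left 4 rises, and leaving out control replicate 4 left 5. Leaving out Mll-deficient replicate 1 left 4, replicate 3 left 5, replicate 4 left 7 and replicate 5 left 3. In these 7 fits fewer of all genes passed as well, between 1.92% and 2.84% rising. The other 3 fits gave 11 (no control replicate 2), 12 (no control replicate 5) and 10 (no Mll-deficient replicate 2). The calls of Mcm2, Orc2 and Rfc4 held in each of the 10 fits that left out 1 array, whereas those of Orc6, Cdc6, Mcm10 and Pole2 held in 3 and those of Pold1 and Pold2 in 2. Without each array in turn, 38 to 40 of the 42 differences stayed above 0 and their median lay between 0.44 and 0.58. In a fit over all 27026 probe sets that passed the filter, 5 of the 11 probe sets kept their call (Mcm2, Orc2, Rfc4, Rpa2 and Exo1), where 2.12% of all probe sets rose and 1.16% fell.

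The arrays themselves had equal scaled means, and their correlations over tested genes lay between 0.896 and 0.969. The least similar array was control replicate 5, which correlated at 0.926 on average with the other controls, where every other array reached 0.952 to 0.962 within its group. Its log2 ratio of 3' to middle control probe sets of Gapdh and Actb, a measure of RNA quality, was the highest at 5.24, and the other 9 arrays lay between 1.73 and 3.87. Among the 42 genes it was the highest control for 18 and the lowest for 13. Kmt2a, the targeted gene, had 2 probe sets and neither passed limma's test: the brighter averaged 260.2 ± 85.8 for controls and 216 ± 97.2 for Mll-deficient samples (SD, n = 5 each, adjusted p = 0.634), and the dimmer 74.7 ± 22.1 and 49.7 ± 32.0 (adjusted p = 0.347). Whether they lie in the floxed exons was not analysed here, and they check nothing about the labels.

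**Figure D1:**
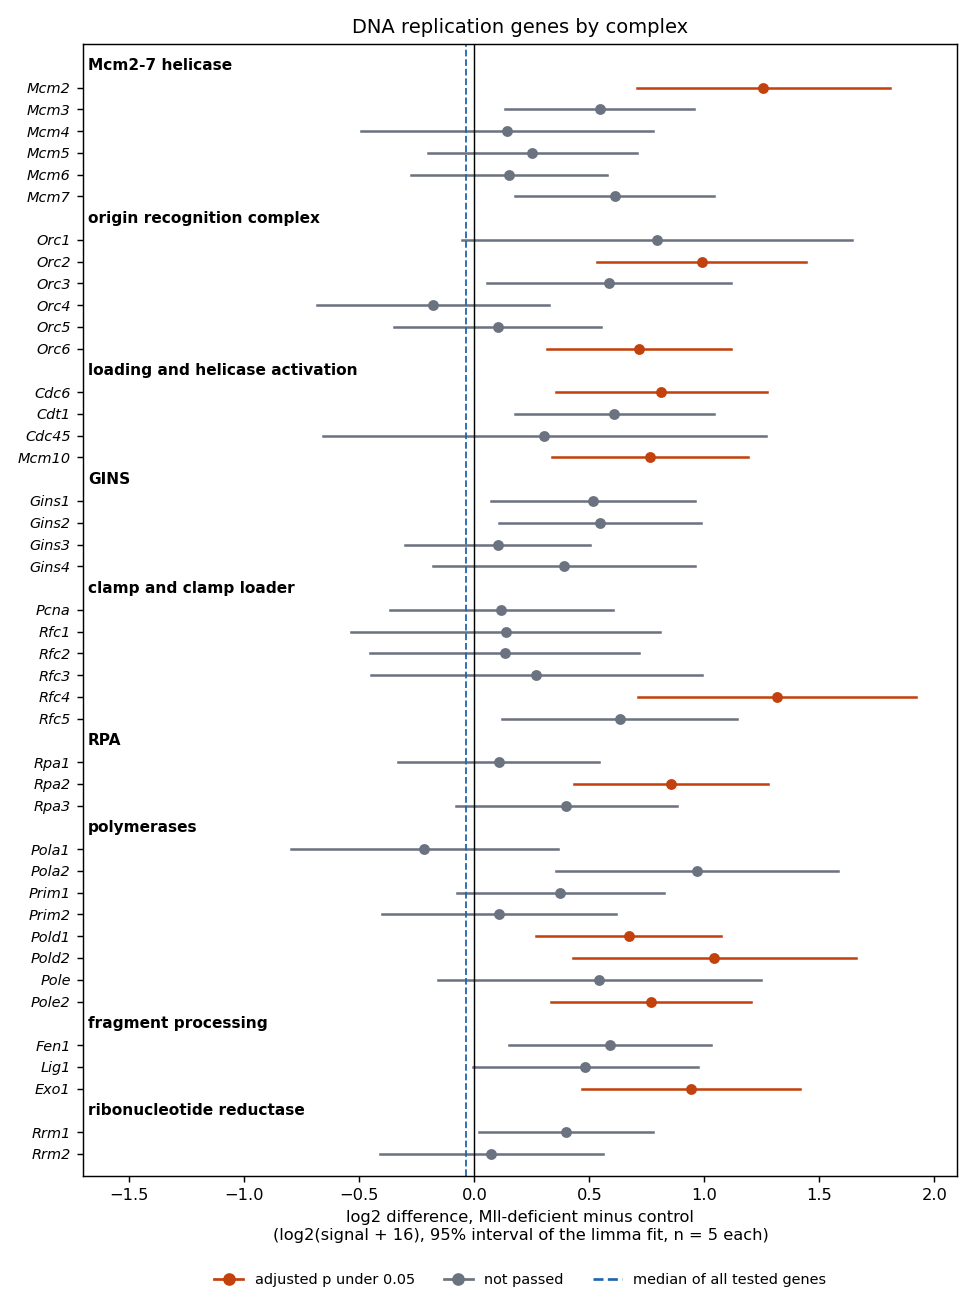
Each point is the log2 difference of 1 gene, Mll-deficient minus control, with the 95% interval of the limma fit (5 arrays per group), ordered by complex, and the dashed line is the median of all tested genes (-0.04). Points lie above 0 for 40 of the 42 genes, and the 11 coloured ones passed an adjusted p of 0.05.

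Promoters of these genes are known for E2F sites, through which the E2F factors turn replication genes on at the end of G1. RefSeq promoter windows of build GRCm38.p6, from 250 bases before to 50 after a start site, were at hand for 34 of the 42 genes (42 windows, as 6 genes had several), including 10 of the 11 that rose. They were searched on both strands for 4 forms of the E2F site, TTTGGCGC, TTTCCCGC, TTTGCCGC and TTTCGCGC, where matches of different forms can overlap. At least 1 match lay in 14 of the 42 windows (33.3%), against 2.26% of all 32851 windows in the table. By gene, 14 of 34 members had a match: 3 of the 10 that rose and 11 of the 24 that did not pass. The CCAAT box, searched as CCAAT on both strands, lay in 59.5% of the members' windows and in 37.4% of all windows. For the GC box GGGCGG these shares were 69% and 35.7%. They were 11.9% and 17.9% for TTTGAA, and 7.14% and 13.6% for TATAAA. The windows compared were not matched for base composition. A match describes the letters of the window and is not a shown binding site. The stretches below are from the 3 genes that rose and held a match (Cdc6, Pole2 and Pold1) and from Mcm6 and Mcm5, which did not pass and in which 2 forms overlap head to head. Capitals mark the matches, and positions are counted from the start site. They lie at chr11:98907983-98908050 (plus strand, positions -168 to -101), chr12:69228161-69228210 (minus strand, -20 to 30), chr7:44548769-44548798 (minus strand, 18 to 47), chr1:128359715-128359845 (minus strand, -140 to -10) and chr8:75109326-75109397 (plus strand, -183 to -112).
Cdc6: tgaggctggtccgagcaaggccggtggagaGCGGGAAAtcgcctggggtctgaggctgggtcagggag
Pole2: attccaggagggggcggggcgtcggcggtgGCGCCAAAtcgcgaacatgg
Pold1: ggtcacggcggcgtatcttgtgGCGGGAAA
Mcm6: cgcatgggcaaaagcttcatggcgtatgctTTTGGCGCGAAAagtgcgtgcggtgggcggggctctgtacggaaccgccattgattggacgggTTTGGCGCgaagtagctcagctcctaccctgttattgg
Mcm5: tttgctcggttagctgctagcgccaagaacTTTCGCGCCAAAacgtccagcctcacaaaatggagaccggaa
In Cdc6 and Pold1 the capitals are TTTCCCGC read on the opposite strand, and in Pole2 they are TTTGGCGC on the opposite strand.

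Of the 6 ORC genes, 2 rose and 4 did not pass, with a median difference of 0.65. Orc2 encodes a core ORC subunit. Its probe set read 290.1, 356, 486, 407 and 510.01 on control replicates 1 to 5 and 754, 615, 829.99, 885 and 1038 on Mll-deficient replicates 1 to 5. Every Mll-deficient array exceeded every control, and the difference was 0.99 ± 0.22 (SE, adjusted p = 0.0143), close to a doubling. Both of the other Orc2 probe sets rose as well, by 1.45 and 0.96 (adjusted p = 0.00205 and 0.0329 in the fit over probe sets). Orc6, the smallest subunit, read 425, 529, 579, 499 and 434 in controls and 889, 671, 873, 733 and 943 in Mll-deficient samples. The groups did not overlap, and Orc6 rose by 0.72 ± 0.19 (SE, adjusted p = 0.0369). Without control replicates 1, 3 or 4 or Mll-deficient replicates 1, 3, 4 or 5 its call ended, with adjusted p values up to 0.101, while its difference stayed between 0.66 and 0.78.

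The remaining ORC genes differed among themselves. Orc3 read 177, 165, 188, 224 and 77.6 in controls and 252, 264, 223, 202 and 297 in Mll-deficient samples, a difference of 0.59 ± 0.25 (SE, adjusted p = 0.191). The overlap came from Mll-deficient replicates 3 and 4, which lay below control replicate 4. The other probe sets of Orc3 were at -0.10 and -0.28, the opposite side of 0. Orc1, the ATPase subunit whose protein is regulated over the cell cycle, was dim and variable, at 11.8 to 103 in controls and 28.8 to 151 in Mll-deficient samples (0.79 ± 0.40, adjusted p = 0.276). Its other probe set was at 0.86 (adjusted p = 0.0576). Orc4 and Orc5, a pair of AAA+ subunits, lay at -0.18 ± 0.24 and 0.10 ± 0.21 (SE; adjusted p = 0.729 and 0.842), with intervals of -0.68 to 0.32 and -0.35 to 0.55. All 4 Orc4 probe sets lay below 0, between -0.41 and -0.05, and none passed.

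Among the 4 genes that load and activate the helicase, 2 rose, and the median difference was 0.69. Cdc6, the ATPase that works with ORC to load Mcm2-7, read 404, 504, 465, 427 and 667 in controls and 872, 644, 728, 1112 and 1065 in Mll-deficient samples. Only control replicate 5 overlapped, lying above Mll-deficient replicate 2, and the gene rose by 0.81 ± 0.22 (SE, adjusted p = 0.0380). Mcm10, which helps to activate the loaded helicase, read 295, 372, 246, 290.03 and 249.96 in controls and 576, 423, 612, 438 and 471 in Mll-deficient samples. Its groups did not overlap, and it rose by 0.76 ± 0.20 (SE, adjusted p = 0.0364). The calls of Cdc6 and Mcm10 ended in the same 7 fits without 1 array as that of Orc6, with adjusted p values up to 0.107 and 0.0925. Averaged with its 2 dimmer probe sets, Mcm10 had a difference of 0.48, which did not pass (adjusted p = 0.0939).

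Cdt1, the partner of Cdc6 in loading, read 4503, 4481, 4626, 3849 and 7438 in controls and 6703, 5959, 8129.8, 7941 and 8580.2 in Mll-deficient samples. Control replicate 5 lay far above the other controls and inside the Mll-deficient range, and the difference of 0.61 ± 0.20 did not pass (SE, adjusted p = 0.0958). Without control replicate 5 it was 0.76 and passed (adjusted p = 0.0110). Cdc45, the helicase cofactor, ranged from 82.4 to 800.4 in controls and 169.7 to 711 in Mll-deficient samples (0.30 ± 0.46, adjusted p = 0.763), and its interval of -0.66 to 1.27 was the widest of the 42 genes.

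All 6 Mcm2-7 helicase genes had differences above 0, with a median of 0.40, and 1 passed. Mcm2 read 734, 1102, 1404, 892 and 1438 in controls and 2716, 1695, 2163, 2732 and 4349 in Mll-deficient samples. Its lowest Mll-deficient array lay above its highest control, and its mean rose from 1114 ± 309.6 to 2731 ± 1002 (SD, n = 5 each), or by 1.26 ± 0.26 in log2 units (SE, adjusted p = 0.0116). The rise was not of one size: Mll-deficient replicate 5 read more than any other array, and without it the difference was 1.07. The brightest Mcm2 probe set is an _s_at set, a suffix for probes shared by several transcripts, and its plain _at set was at 0.93 (adjusted p = 0.0523).

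Mcm3 and Mcm7 came nearest to Mcm2. For Mcm3 the controls read 1838, 2015, 2101, 2192 and 1877 and the Mll-deficient arrays 2494, 2664, 2376, 3239.8 and 4178. These groups did not overlap, yet the difference of 0.54 ± 0.19 did not pass (SE, adjusted p = 0.116), and its other 4 probe sets ranged from -0.05 to 0.73. Mcm7 read 6007, 10392, 7603, 8927 and 6989.8 in controls and 13734, 9956, 16024, 9858 and 11399.9 in Mll-deficient samples, a difference of 0.61 ± 0.20 (SE, adjusted p = 0.0958). Only control replicate 2 reached into the Mll-deficient range, and all 4 Mcm7 probe sets lay between 0.48 and 0.85.

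Mcm4, Mcm5 and Mcm6, the remaining ring subunits, had differences of 0.14 ± 0.30, 0.25 ± 0.22 and 0.15 ± 0.20 (SE), and none passed (adjusted p = 0.841, 0.555 and 0.731). Each was read by an _x_at set, a suffix for probes that may cross-hybridise, and in each control replicate 5 was the highest control. For Mcm4 that array read 5491, while the other controls lay between 1659 and 2315. The plain _at sets of Mcm4 and Mcm6 were at 0.39 and 0.60 (adjusted p = 0.390 and 0.274). Mcm5 had 2 tested plain _at sets, which disagreed at 0.94 and 0.06 (adjusted p = 0.191 and 0.940), and none of these passed. Of the 42 genes 7 were read by an _x_at set, and control replicate 5 was the highest control for all 7. It was so for 5 of the 9 read by an _a_at set, 3 of the 5 read by an _s_at set and 3 of the 21 read by a plain _at set. In a fit with the 3' to middle ratio as a covariate 19 of the 42 genes rose and 0 fell, where 7.69% of all genes rose.

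**Figure D2:**
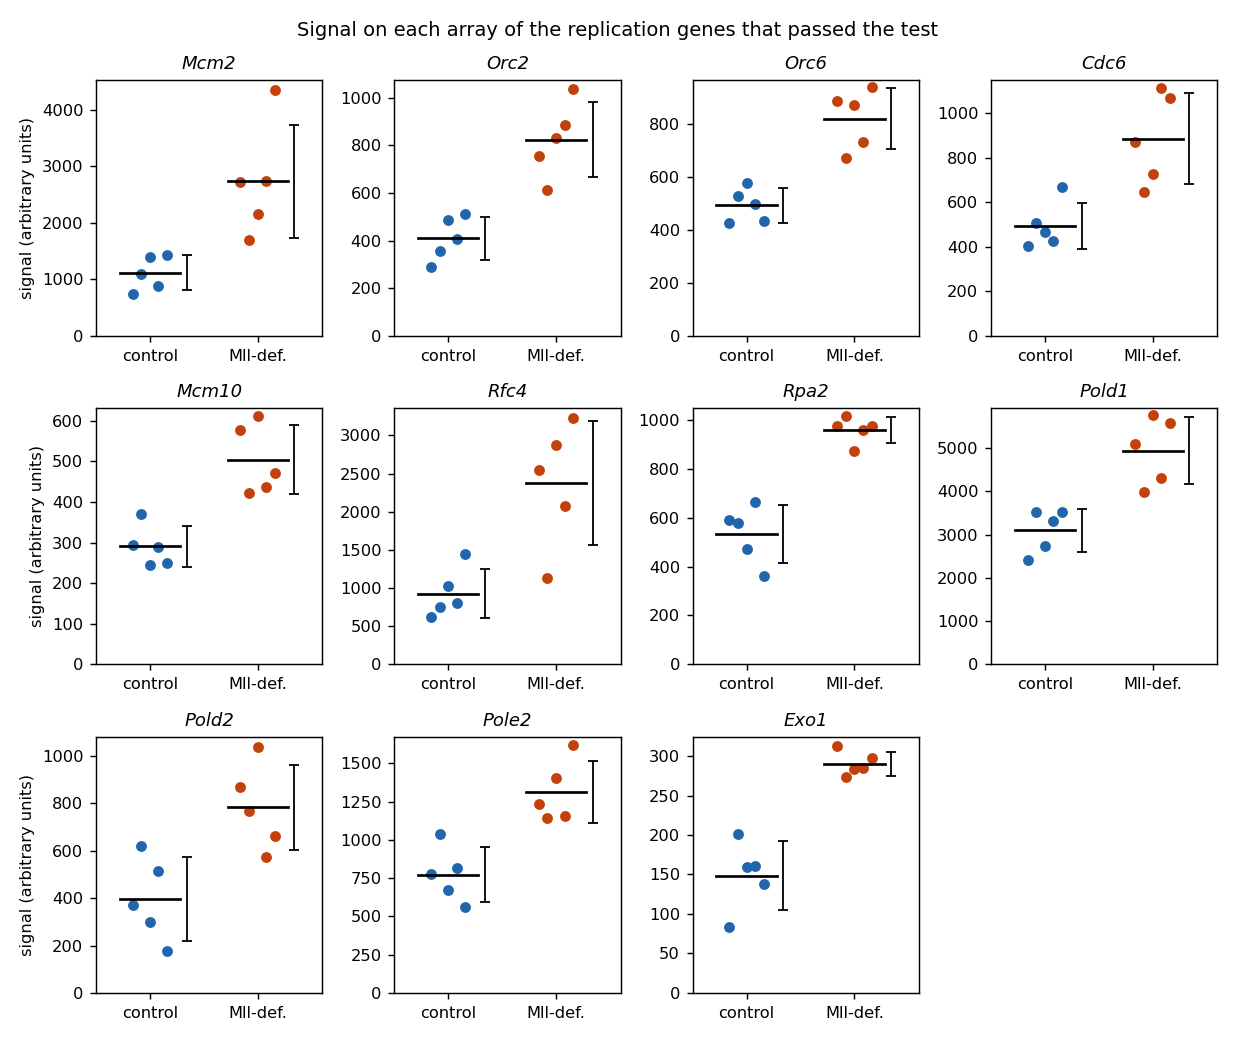
Signal in arbitrary units on each control (blue) and Mll-deficient (orange) array for the 11 genes that rose, with the mean as a line and the SD as a bar (n = 5 each). The groups do not overlap in Mcm2, Orc2, Orc6, Mcm10, Rpa2, Pold1, Pole2 and Exo1, whereas 1 array overlaps in Cdc6, Rfc4 and Pold2.

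Of the 4 GINS genes, whose products bind Cdc45 and Mcm2-7, 0 passed in limma, and 2 were higher at an unadjusted p under 0.05. Gins1 read 352, 508, 326, 560.3 and 452 in controls and 677, 662, 479.9, 698 and 623 in Mll-deficient samples, a difference of 0.52 ± 0.21 (SE, adjusted p = 0.168). Mll-deficient replicate 3 lay among the controls, and the other 4 lay above all of them. Gins2 read 197, 313, 321, 347 and 365 in controls and 496, 435, 505, 389.6 and 428 in Mll-deficient samples. Its groups did not overlap, and its difference was 0.55 ± 0.21 (SE, adjusted p = 0.142). Gins3 and Gins4 lay at 0.10 ± 0.19 and 0.39 ± 0.27 (adjusted p = 0.818 and 0.447), with overlapping arrays.

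Among PCNA and the 5 clamp loader genes, all 6 differences were above 0, with a median of 0.20, and 1 passed. Rfc4, a small clamp loader subunit, read 618, 757, 1024, 800.1 and 1443 in controls and 2545, 1132, 2876, 2081 and 3226 in Mll-deficient samples. Mll-deficient replicate 2 lay below control replicate 5 and the other 4 lay above all controls, and the mean rose from 928 ± 323 to 2372 ± 812 (SD, n = 5 each), by 1.31 ± 0.29 on the log2 scale (SE, adjusted p = 0.0141). The probe sets of Rfc4 disagreed. Its brightest is an _s_at set. Its plain _at set was dimmer, averaging 63.1 in controls and 58.3 in Mll-deficient samples, and was at -0.02 (adjusted p = 0.977). Averaged, both sets gave 0.65, which still passed. Rfc5 read 1056, 1586, 742, 1198 and 608 in controls and 1647, 1609.8, 1604, 1589 and 1241 in Mll-deficient samples, a difference of 0.63 ± 0.24 (SE, adjusted p = 0.142). There control replicate 2 lay within the Mll-deficient range, and Mll-deficient replicate 5 lay well below the other 4. Pcna itself, the sliding clamp, read 1648 to 2751 in controls and 1630.1 to 3254 in Mll-deficient samples, a difference of 0.12 ± 0.23 (SE, adjusted p = 0.825) with an interval of -0.37 to 0.60. Rfc1, Rfc2 and Rfc3 lay at 0.14, 0.13 and 0.27, with adjusted p values of 0.858, 0.839 and 0.713.

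Replication protein A coats single-stranded DNA at the fork. Rpa2, its middle subunit, read 588, 579, 472, 664 and 362 in controls and 972, 1014, 871, 959 and 975 in Mll-deficient samples. The Mll-deficient arrays lay close together and all above the controls, and Rpa2 rose by 0.85 ± 0.20 (SE, adjusted p = 0.0206). Its other probe set was dim, averaging 17.4 in controls and 18.1 in Mll-deficient samples. It was at 0.08, and the mean of both, 0.47, did not pass (adjusted p = 0.147). The call also ended without control replicate 3 and without Mll-deficient replicate 5 (highest adjusted p 0.0573). Rpa1 and Rpa3, the large and small subunits, lay at 0.10 ± 0.21 and 0.40 ± 0.23 (adjusted p = 0.828 and 0.343). For Rpa1 control replicate 5 read 17806, more than any Mll-deficient array.

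**Figure D3:**
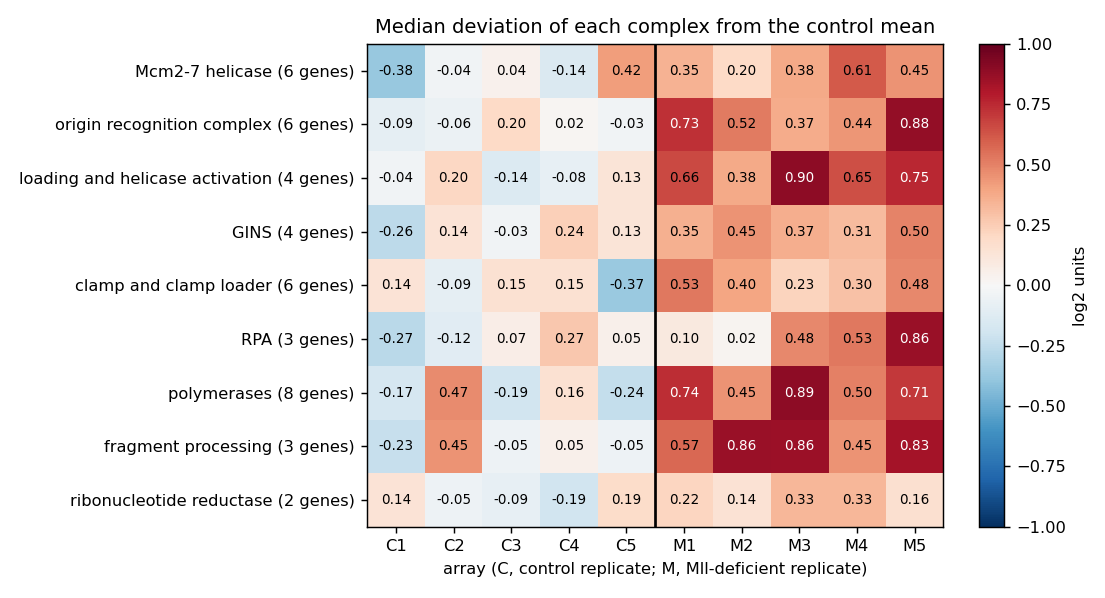
Each cell is the median over the genes of a complex (rows) of the deviation from the control mean, in log2 units, on 1 array (columns, control replicates C1 to C5 and Mll-deficient replicates M1 to M5). The Mll-deficient columns are above 0 in every row, from 0.02 for RPA on replicate 2 to 0.90 for loading and activation on replicate 3, and the control columns run from -0.38 to 0.47.

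The polymerase genes held 3 of the 11 rises, and their median difference was 0.61 over 8 genes. Pold1, the catalytic subunit of polymerase delta, which extends the lagging strand, read 2411, 3520.1, 2746, 3305 and 3529 in controls and 5103, 3976, 5756, 4299 and 5579 in Mll-deficient samples. Its groups did not overlap, and it rose by 0.67 ± 0.19 (SE), just inside the threshold (adjusted p = 0.0495). Pold2, an accessory subunit of the same enzyme, read 371, 619, 299, 516 and 175 in controls and 869.99, 768, 1038, 573 and 664 in Mll-deficient samples. Only Mll-deficient replicate 4 lay below a control, replicate 2, and the difference was 1.04 ± 0.29 (SE, adjusted p = 0.0461). Both polymerase delta calls ended in 8 of the 10 fits without 1 array, with adjusted p values up to 0.130 for Pold1, without Mll-deficient replicate 1, 3, 4 or 5 or control replicate 1, 2, 3 or 4, and up to 0.116 for Pold2, without Mll-deficient replicate 1, 2, 3 or 5 or control replicate 1, 3, 4 or 5. Pold1 was read by an _x_at set, whose probes may cross-hybridise, and its other probe set was at 0.65 (adjusted p = 0.465).

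Pole2, an accessory subunit of polymerase epsilon, which extends the leading strand, read 774, 1039, 671, 815 and 564 in controls and 1236, 1144, 1407, 1153 and 1621 in Mll-deficient samples. All Mll-deficient arrays lay above all controls, and Pole2 rose by 0.77 ± 0.20 (SE, adjusted p = 0.0383). Its other probe set was dim, averaging 20.9 in controls and 15.9 in Mll-deficient samples. It was at -0.22, and the average of both, 0.27, did not pass (adjusted p = 0.356). The call ended in the same 7 fits without 1 array as that of Orc6 (highest adjusted p 0.111). Pole, the catalytic subunit, ranged from 274 to 1110.01 in controls and 479 to 1379 in Mll-deficient samples, a difference of 0.54 ± 0.33 (SE, adjusted p = 0.385).

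Polymerase alpha and primase, which make the primers, gave mixed values. Pola2, the accessory subunit, read 184, 406, 184, 252 and 135 in controls and 629, 393, 608, 279 and 385 in Mll-deficient samples. Control replicate 2 overlapped with 3 Mll-deficient arrays, and the difference of 0.97 ± 0.29 did not pass (SE, adjusted p = 0.0615). The other Pola2 probe sets were dimmer, averaging 51.1 and 20.8 in controls, and were at 0.03 and 0.12. Without control replicate 2 or Mll-deficient replicate 4 the brightest set passed (lowest adjusted p 0.0181). Pola1, the catalytic subunit, had the lowest difference of the 42, -0.22 ± 0.27 (SE, adjusted p = 0.711), with an interval of -0.80 to 0.36. The primase genes Prim1 and Prim2 lay at 0.37 ± 0.21 and 0.11 ± 0.24 (adjusted p = 0.343 and 0.853), and neither separated the groups.

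Of 3 genes for enzymes that act on DNA ends and flaps, 1 rose. Exo1, a 5' to 3' exonuclease of replication and mismatch repair, read 83.0, 201, 159, 161 and 138 in controls and 313, 274, 283, 285 and 297 in Mll-deficient samples. The Mll-deficient arrays were tightly grouped, the controls were not, and the difference was 0.94 ± 0.22 (SE, adjusted p = 0.0225). Both of its other probe sets lay below the filter on signal, and averaging all 3 gave 0.50, which did not pass (adjusted p = 0.0551). Without control replicate 1, where Exo1 was lowest, the difference was 0.77 and did not pass, nor did it without Mll-deficient replicates 1 or 5 (highest adjusted p 0.0590). Fen1, the flap endonuclease that trims Okazaki fragments, read 6815, 7834, 7704, 6446 and 12266 in controls and 11888, 9461, 14482, 10923 and 14230.5 in Mll-deficient samples, a difference of 0.59 ± 0.21 (SE, adjusted p = 0.112). Again control replicate 5 lay inside the Mll-deficient range, and without it the difference was 0.75 and passed (adjusted p = 0.0127). The other Fen1 probe set was at 1.08 (adjusted p = 0.0779). Lig1, the ligase that seals fragments, ranged from 1123 to 2454 in controls and 1839 to 3232 in Mll-deficient samples (0.48 ± 0.23, adjusted p = 0.250).

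Ribonucleotide reductase makes deoxyribonucleotides, and neither of its 2 genes passed, with 1 higher at an unadjusted p under 0.05 in limma. Rrm1, the large subunit, read 2075, 2014, 1811, 2137 and 1458 in controls and 2259, 2799, 2517, 2415 and 2476 in Mll-deficient samples. The groups did not overlap, but by a small margin, and the difference was 0.40 ± 0.18 (SE, adjusted p = 0.211). Rrm2, the small subunit made in S phase, ranged from 4755 to 11730.5 in controls and 5785 to 8735 in Mll-deficient samples, with a difference of 0.07 ± 0.23 (SE, adjusted p = 0.901) and an interval of -0.41 to 0.56.

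Probe sets of the same gene gave a measure of how far these values depend on the sequence probed. The 42 genes had 94 probe sets naming them alone, of which 87 passed the filter. Of 30 genes with at least 2 tested probe sets, 24 had all on the same side of 0, and Mcm3, Orc3, Cdc45, Rfc1, Rfc4 and Pole2 had them on both. The 45 tested probe sets that were not the brightest had a median difference of 0.20, and 35 of them were above 0. Of these 45, 2 rose, where 2.12% of all tested probe sets rose, and both were of Orc2. Orc2 was thus the gene whose 3 probe sets all passed.

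**Figure D4:**
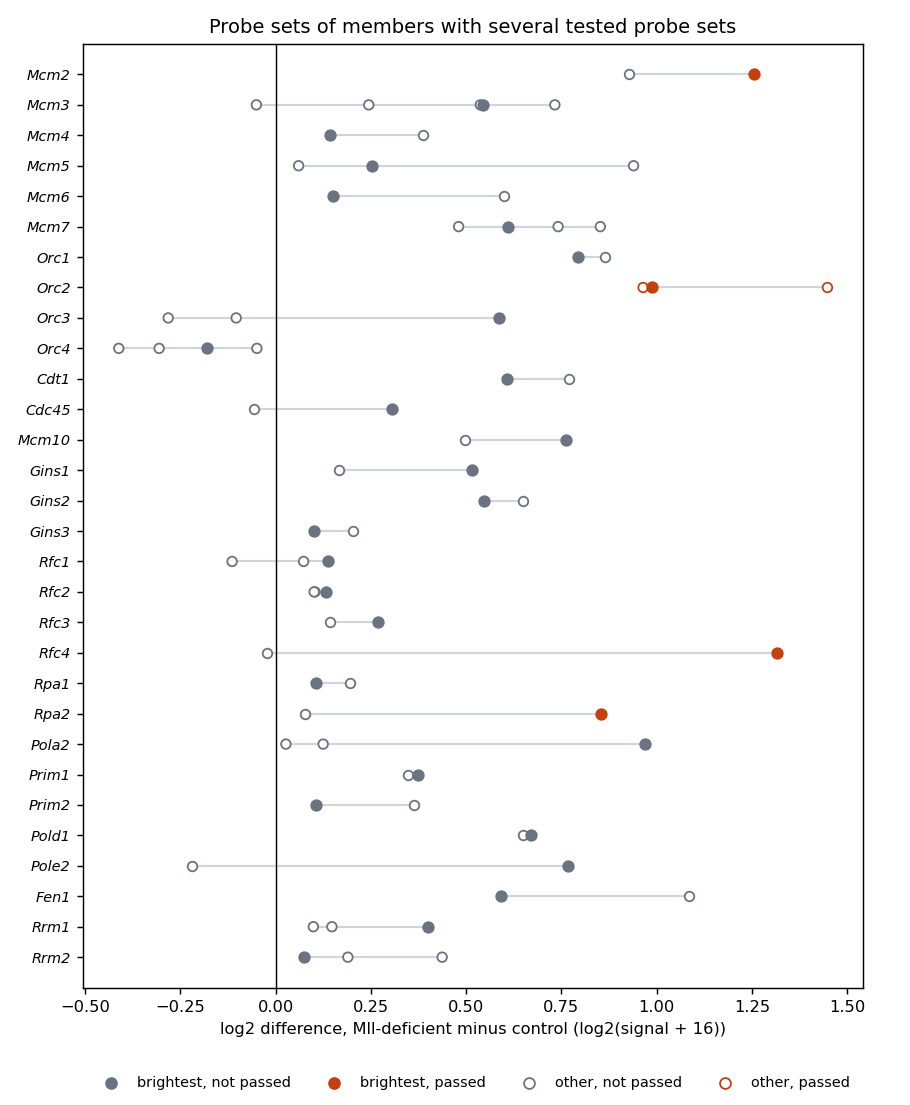
Log2 differences of every tested probe set of the 30 genes with at least 2, with the brightest filled and the others open, and those that passed in the fit over all probe sets coloured. The 3 Orc2 probe sets lie between 0.96 and 1.45, while the 2 of Rfc4 lie at -0.02 and 1.31.

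Other genes of replication and of neighbouring steps were counted in the same fit. Of 16 genes of licensing control and its kinases, 1 rose, 0 fell and 15 did not pass (median 0.17). The rise was Recql4, a helicase that takes part in origin firing, at 1.42 ± 0.21 (SE, adjusted p = 9.97e-04), and next by p were Ccne1, which encodes cyclin E1, at 0.78 ± 0.32 (SE, adjusted p = 0.178) and Cdc7, the kinase that phosphorylates Mcm2-7, at -0.52 ± 0.28 (SE, adjusted p = 0.313). Of 15 fork protection and checkpoint genes, 1 rose and 14 did not pass (median 0.37). That gene was Dscc1, part of an alternative clamp loader, at 0.85 ± 0.23 (SE, adjusted p = 0.0452), followed by Timeless, a fork protection factor, at 0.79 ± 0.23 (SE, adjusted p = 0.0575) and Chtf18, the large subunit of that loader, at 0.66 ± 0.24 (SE, adjusted p = 0.121). Of 13 further polymerase subunits and Okazaki fragment genes, 1 rose and 12 did not pass (median 0.10): Pole3, a polymerase epsilon subunit, at 0.73 ± 0.20 (SE, adjusted p = 0.0421). Rnaseh2a, the catalytic subunit of the enzyme that removes RNA from DNA, was at 0.75 ± 0.24 (SE, adjusted p = 0.0842) with groups that did not overlap, and Dna2, a nuclease and helicase, was at 0.47 ± 0.30 (SE, adjusted p = 0.402).

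Of 12 measured genes of chromatin assembly behind the fork, 1 rose and 11 did not pass (median 0.43). It was Supt16, a subunit of the histone chaperone FACT, at 1.06 ± 0.27 (SE, adjusted p = 0.0292), and next were the histone chaperone genes Asf1a, at 0.63 ± 0.19 (SE, adjusted p = 0.0645), and Nasp, at 0.67 ± 0.21 (SE, adjusted p = 0.0752). Nucleotide supply gave 2 rises among 10 measured genes, 0 falls and a median of 0.31, with 3 higher and 3 lower at an unadjusted p under 0.05. The 2 rises were the nucleotide-cleaning enzymes Dut, at 0.92 ± 0.22 (SE, adjusted p = 0.0227), and Dctpp1, at 1.04 ± 0.25 (SE, adjusted p = 0.0257). Ctps, which encodes a CTP synthase, was at 0.78 ± 0.24 (SE, adjusted p = 0.0680). The 3 lower genes, named after their values were seen, were Samhd1, which breaks down deoxyribonucleotides, at -0.80 ± 0.25 (SE, adjusted p = 0.0730), Rrm2b, an alternative small subunit of ribonucleotide reductase, at -0.74 ± 0.25 (SE, adjusted p = 0.0931) with groups that did not overlap, and Dck, a deoxynucleoside kinase, at -0.57 ± 0.24 (SE, adjusted p = 0.180). Over these lists and the following pair, 6 of 103 tested genes rose and 0 fell, where 3.76% of all tested genes rose and 1.75% fell. Whether 6 exceeds that share was not tested. The rises were 1 without control replicate 1 or Mll-deficient replicate 5, 2 without Mll-deficient replicate 4, 3 without Mll-deficient replicate 1 or 3, and between 4 and 7 in the other fits. Without control replicate 5, 2 genes also fell.

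The 13 E2f and Rb family genes gave 0 calls in limma, with 0 higher and 4 lower at an unadjusted p under 0.05 (median -0.08). The lowest p was that of Rb1, the retinoblastoma gene, which restrains E2F factors, at -0.84 ± 0.26 (SE, adjusted p = 0.0730) with groups that did not overlap, and Rbl2 and Rbl1, its relatives, were at -0.55 ± 0.25 (SE, adjusted p = 0.208) and -0.54 ± 0.24 (SE, adjusted p = 0.214). For cell division after S phase, 24 genes of G2 and mitosis were measured and 0 passed in limma, with 0 higher and 3 lower at an unadjusted p under 0.05. Their median difference was -0.08, and the lowest p values belonged to the mitotic motor genes Kif11, at -0.63 ± 0.19 (SE, adjusted p = 0.0650), and Kif23, at -0.79 ± 0.27 (SE, adjusted p = 0.0977), and to Cenpf, a kinetochore gene, at -0.49 ± 0.23 (SE, adjusted p = 0.232). At an unadjusted p under 0.05 in limma, 10.5% of all tested genes were higher and 10.2% lower. Whether either list departs from these shares was not tested. A difference between the replication and the mitotic genes was not tested.

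Markers of other cells were read on the same arrays, and their signals were summed over the measured genes of each list. Of 17 measured erythroid genes 11 rose and 0 fell (median 1.43), and their summed signal was 7052 to 11237 on control and 21937 to 24647 on Mll-deficient arrays, without overlap. Klf1, an erythroid transcription factor gene, rose from 354 to 2860.3, while the erythroid enzyme gene Alas2 was dim in both groups, at 36.6 and 47.6. The part of erythroid RNA in the replication values was not tested. Of 15 granulocyte and monocyte genes 0 passed in limma (4 higher and 2 lower at an unadjusted p under 0.05), and their sum was 105733 to 171402 on control and 117129 to 189871 on Mll-deficient arrays. Neutrophil genes were bright in both groups, although the gate excludes mature lineages. S100a8 averaged 23795 for controls and 25895 for Mll-deficient samples, and Ngp 20237 and 21911. Itgam was dim, at 52.9 and 27.9. The 4 higher genes were Elane, Mpo, Prtn3 and Ms4a3, at log2 differences of 0.97, 0.71, 0.68 and 0.67. Mmp9 and Itgam, the 2 lower ones, were at -1.03 and -0.73. The cells that held this RNA were not identified. None of 10 tested megakaryocyte genes passed (0 higher and 2 lower unadjusted), with sums of 1918 to 4865 on control and 1550.2 to 2849.9 on Mll-deficient arrays. Among B cell genes 0 of 8 passed and 0 did so unadjusted, with sums of 995 to 6693 on control and 1433 to 5019 on Mll-deficient arrays. Of 5 tested T and natural killer cell genes 0 passed and 1 was higher unadjusted, with sums of 344 to 749 on control and 683 to 1586 on Mll-deficient arrays, while Cd3e, Cd3g and Cd4 lay below the filter. Of the sort markers, Kit averaged 126 for controls against 72.3 for Mll-deficient samples (difference -0.73 ± 0.27 (SE, adjusted p = 0.132)). For Kit all Mll-deficient arrays lay below all controls, which happened for 2.54% of all tested genes. Cd48 averaged 109 and 124, and Ly6a (Sca-1) was not analysed here. Of 11 genes of the sort gate and of stem cells, 2 fell (Mecom and Hlf) and 0 rose, with a median of -0.37 and sums of 2515 to 6214 on control and 1474 to 3478 on Mll-deficient arrays.

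**Figure D5:**
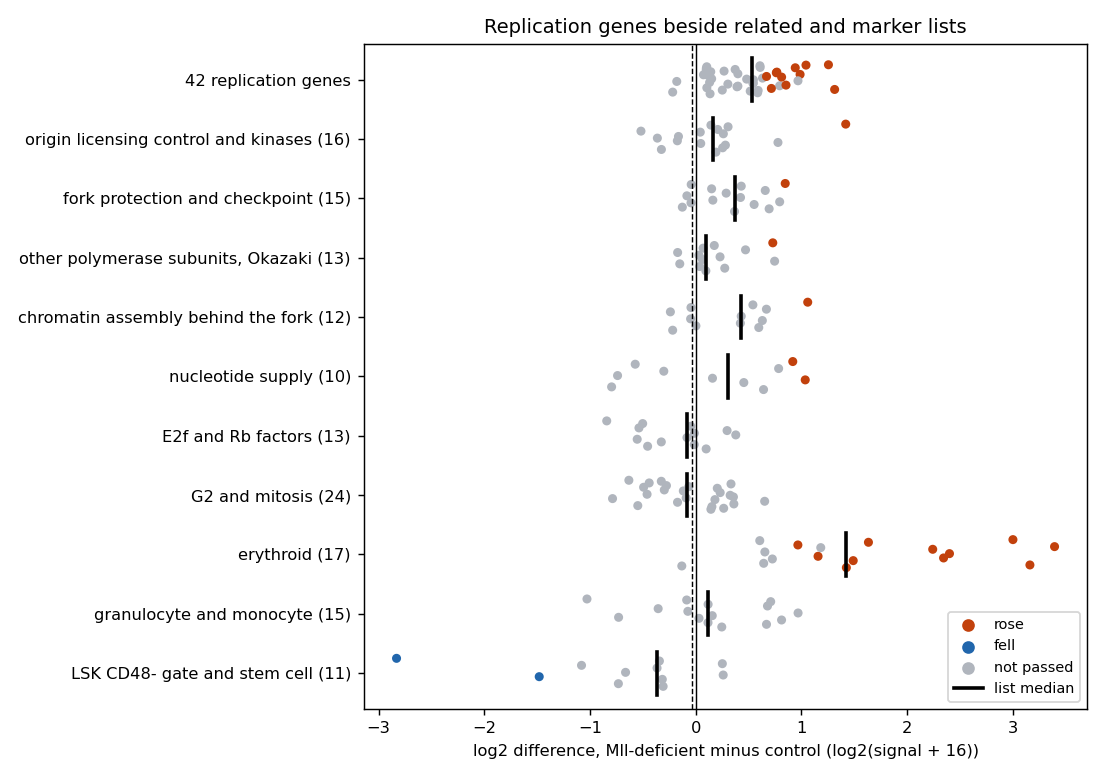
Each point is the log2 difference of 1 tested gene, coloured where it rose or fell at an adjusted p of 0.05, with the list median as a bar and the median of all tested genes as a dashed line (-0.04). The 42 replication genes have a median of 0.53, the erythroid list one of 1.43, and the G2 and mitosis list one of -0.08 with 0 calls.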

How the data were processed

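RNA of 10 mice was measured on 10 arrays, 5 per group, grouped by sample title. Each deposited value is a linear intensity, 1 per probe set and array, and the submitters' processing notes name MAS5 5.0. On each array the mean after dropping 2% of probe sets at each end was 150.001, so the authors had scaled every array to 1 constant, which hides differences in total RNA per cell. No detection calls were used here. A platform annotation gave 34958 of 45101 probe sets 1 symbol, 932 several and 9211 none. Symbols were updated through Entrez identifiers to RefSeq (GRCm38.p6), which held 34754 of them.

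Values were taken as log2(signal + 16). A gene was tested if the mean of its brightest probe set exceeded that of 40 percent of probe sets (a signal of about 12.2), which left 12582 genes. The test was limma's (version 3.58.1, R 4.3.3; two-sided, lmFit then eBayes, variance prior following intensity), with p-values adjusted by Benjamini-Hochberg. The procedure was tested on simulated data with independent noise of each gene's own spread. It recovered 3 of 50 changes of 0.5 log2 units, 21 of 50 of 1, 49 of 50 of 2 and 50 of 50 of 3. Of its 132 calls, 9 were false. A gene that did not pass can therefore still differ by 0.5 or 1 log2 units. Alternatives covered the offset (1, 64), quantile normalization, median centring, the filter (none, 60th percentile), averaged probe sets, the variance prior, array weights, RNA quality, a replicate block and leaving out each array.

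The members and lists were chosen with earlier results of these data known. All 42 members are named. Those with an unadjusted p under 0.05 are given on every array, and up to 3 genes with the smallest p are named from each related list. Some genes of the related and marker lists were not analysed here. The titles call the samples biological replicates.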

Additional observations from a re-analysis of the deposited data

Results flagged for a closer look

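In 4 of the 84 groups of 5 arrays examined, 1 array stood far from the other 4 on the log2 scale, by Dixon's test at the 95% level, which chance alone gives in about 1 group in 20. Mcm4 read 5491 on control replicate 5, while the other controls lay between 1659 and 2315. Cdt1 read 7438 on control replicate 5 and 3849 to 4626 on the others. Gins2 read 197 on control replicate 1 and 313 to 365 on the others. Rfc5 read 1241 on Mll-deficient replicate 5 and 1589 to 1647 on the others.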

How the results depend on the processing

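The direction of the 42 genes as a group held under every alternative run: 38 to 40 differences were above 0, 0 genes fell, and the median lay between 0.40 and 0.59. It moved most when all probe sets were averaged (0.40) and with array weights (0.42). Without 1 array it lay between 0.44 and 0.58. The count of 11 rises was 7 with averaged probe sets (5 of the 11 kept, with Cdt1 and Fen1 added), 5 in the fit over all probe sets, and 19 with the RNA quality covariate (all 11 kept). It lay between 9 and 14 with the other offsets, normalizations, filters, weights and variance prior. Without 1 array it ranged from 3 to 12. With the replicate block it was 6, and Cdc6, Mcm10, Orc6, Pold1 and Pole2 lost their calls. Deviations of same-numbered arrays correlated at -0.228 to 0.277, with both signs. The numbers were not used as pairs, and what differently numbered arrays would give was not computed. Among all genes the 473 rises became 968 with the RNA quality covariate and 242 to 554 without 1 array. The 220 falls became 107 with median centring, which moves the split of calls towards rises, 340 with array weights, 641 with the RNA quality covariate and 75 to 319 without 1 array. In the related lists the 6 rises became 13 with the RNA quality covariate and 1 to 7 without 1 array, and the 0 falls became 1 with the 60th percentile filter, 1 with averaged probe sets, 2 with array weights, 6 with the RNA quality covariate and 0 to 2 without 1 array. The cause of these changes was not tested. A fit over all probe sets adjusts over more tests, and a fit without 1 array has fewer samples. How far either accounts for the counts was not tested. Differences near 0 changed side: with quantile normalization Rpa1 was at -0.030 and Rrm2 at -0.032. Over the fits without 1 array Rfc2 ranged from -0.035 to 0.36 and Rrm2 from -0.067 to 0.26 (both lowest without control replicate 4), Cdc45 from -0.075 (without control replicate 5) to 0.69, Mcm4 from -0.028 to 0.45 and Prim2 from -0.0088 to 0.29 (both lowest without Mll-deficient replicate 4), and Rfc1 from -0.12 (without Mll-deficient replicate 5) to 0.37. No such value passed the test. The number of arrays limits the precision, and Orc1 and Rfc3, at the lowest mean log2 values of the 42 genes, lie nearest to the filter.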
